A study of Mus musculus with 16 samples.

Results

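Epithelial identity in the colon is followed here through 8 genes, the adhesion molecules *Epcam*, *Cdh1* and *Cdh17*, the nuclear receptors *Hnf4a* and *Hnf4g*, the Kruppel-like factors *Klf4* and *Klf5*, and the ETS factor *Elf3*. They were chosen by gene symbol, with earlier results of these data known, and all 8 are among the 22396 symbols of the deposited tables. Their RNA was measured in EpCAM+ cells sorted from the distal colon of 16 mice, each sequenced as a library of its own. The study asked what the loss of TNFR2, a receptor of tumor necrosis factor, does to colonic epithelium during repair from dextran sulfate sodium (DSS), an agent that injures this epithelium when given in the drinking water.

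All mice carried floxed alleles of *Tnfrsf1b*, the gene of TNFR2, with loxP sites around exon 2. Controls were Tnfr2-f/f mice with no Cre, and the mice labelled Tnfr2ko were Vil1::Cre;Tnfr2-f/f, in which Cre is driven by the villin promoter and is thus made in intestinal epithelial cells. The DSS groups held 3 controls and 4 Tnfr2ko mice, and the water groups held 4 controls and 5 Tnfr2ko mice. The mice were 8 weeks old by the study's methods. The labels give 3% DSS for 6 days and dissection at day 12 for every mouse, whereas the methods give 3.5% DSS and uninjured mice at day 0. By the same methods, injured regions of DSS-treated colon were picked out and set apart from unaffected colon before cells were isolated. The region sampled thus differed with treatment as well. The 7 DSS mice were all female and came from cages c (1 control and 1 Tnfr2ko) and d (2 controls and 3 Tnfr2ko). In the water groups the 4 males shared cage a and the 5 females cage b, which makes cage and sex inseparable there. Mice on DSS and on water were never caged together, so treatment and cage cannot be told apart. All males were on water, so the share of males differed with treatment as well. *Tnfrsf1b* RNA overlapped between the genotypes in both treatments. It lay between 13.3 and 22.2 TPM in the DSS controls against 13.5 to 27.0 TPM, and between 11.1 and 15.5 TPM in the water controls against 9.23 to 14.8 TPM (exact two-sided permutation p = 0.629 after DSS and 0.183 in water, n = 3 and 4, and 4 and 5). These values cover the whole listed transcript, and a loss of exon 2 alone need not lower them, so they do not check the genotype labels.

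EpCAM and E-cadherin (*Cdh1*) hold epithelial cells together, and the sort itself was made on EpCAM protein. LI-cadherin (*Cdh17*) is an intestinal cadherin with a short cytoplasmic tail that does not bind catenins. HNF4A and HNF4G are closely related receptors that bind the same DNA element and drive enterocyte genes, KLF4 is highest in differentiated cells of the upper crypt and KLF5 in dividing cells of the crypt base, and ELF3 is an epithelium-specific ETS factor of differentiating enterocytes.

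The authors quantified reads of 75 bases with kallisto and deposited TPM, transcript abundance corrected for transcript length and library total, in 1 table for each treatment. The 2 tables were scaled separately, so genotypes were tested within a table and only levels are given between treatments. For those levels all 16 libraries were rescaled once by median-of-ratios factors, which lay between 0.905 and 0.940 in the water libraries and between 1.13 and 1.24 in the DSS libraries, and the results are called rescaled TPM. TPM keep no read counts, so the depth of a single library is unknown from these values. The authors' mean estimated counts over a table do differ with treatment. They were 3312 in water and 10327 after DSS for *Epcam*, and 2137 and 3021 for *Klf4*, whose TPM lay lower after DSS. More reads thus stood behind a given TPM in the DSS table. The labels do not say whether mice of a group were littermates, and p-values measure the spread between these mice.

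Only transcripts annotated as principal isoforms are listed, which matters most for *Hnf4a* (ENSMUSG00000017950), on the plus strand of chromosome 2 of GRCm38 from 163506808 to 163572910. This gene is read from an upstream promoter, P2, and a downstream promoter, P1. The listed transcript, ENSMUST00000018094.12, has 10 exons and 4356 bases and starts at 163547188, on the P1 side. The only annotated transcript that starts at P2 is a fragment of 431 bases, so reads from exons that P1 and P2 mRNA share can be counted in the listed transcript, and the deposited *Hnf4a* level does not tell the promoters apart. The stretches upstream of both starts are shown because RNA from either may enter the level, with those of *Klf4* and *Elf3*, the pair that lay lower after DSS. They are RefSeq promoters of GRCm38.p6 (mm10), written 5′ to 3′ on the gene's own strand. Of the 250 bases before each start, bases inside an exon of an annotated coding transcript were left out. Capitals mark matches, on either strand, to GTTAAT (an HNF1 half-site), CAAAGTCCA (an HNF4 element), GGGCGG (a GC box), CACCC (a box bound by Kruppel-like factors), AGGAAG (an ETS core) and TATAAA.
Hnf4a P1, chr2:163546905-163547154, plus strand: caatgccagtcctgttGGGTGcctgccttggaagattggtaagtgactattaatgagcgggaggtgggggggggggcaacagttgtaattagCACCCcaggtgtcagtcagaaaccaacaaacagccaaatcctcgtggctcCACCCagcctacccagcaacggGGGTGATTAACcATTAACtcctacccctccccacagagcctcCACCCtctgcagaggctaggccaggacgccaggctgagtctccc
Hnf4a P2, chr2:163506607-163506807, plus strand: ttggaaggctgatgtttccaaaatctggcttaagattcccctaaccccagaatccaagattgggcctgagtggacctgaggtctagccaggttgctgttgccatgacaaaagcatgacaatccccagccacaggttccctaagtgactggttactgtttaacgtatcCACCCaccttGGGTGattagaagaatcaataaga
Klf4, chr4:55532476-55532725, minus strand: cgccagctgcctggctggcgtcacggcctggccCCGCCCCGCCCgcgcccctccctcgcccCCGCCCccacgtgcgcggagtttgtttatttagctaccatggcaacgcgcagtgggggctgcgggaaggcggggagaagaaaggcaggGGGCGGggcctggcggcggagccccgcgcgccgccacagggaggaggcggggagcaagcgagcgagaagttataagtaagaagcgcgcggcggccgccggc
Elf3, chr1:135258569-135258722, minus strand: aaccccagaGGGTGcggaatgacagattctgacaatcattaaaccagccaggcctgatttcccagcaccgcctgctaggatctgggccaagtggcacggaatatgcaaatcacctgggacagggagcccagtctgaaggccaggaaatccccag

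The P1 stretch of *Hnf4a* held 2 HNF1 half-sites side by side, at 81 to 76 and 74 to 69 bases before the start. The P2 window held 0 exact matches to this half-site. Only exact matches were counted, so sites that depart from these letters are missed. Among the 32817 RefSeq promoter windows of 250 bases, 6.44% held this half-site. GC boxes numbered 4 in the *Klf4* stretch, of which 1 pair overlapped, 1 in the P2 window and 0 in those of *Hnf4a* P1 and *Elf3*, and 32.7% of all windows held at least 1. The *Klf4* window had 74.0% G and C and 32 CpG dinucleotides, more than 95.4% of all windows. CACCC was found in 52.0% of all windows, 5 times in P1, 3 times in P2, 2 times in *Elf3* and 0 times in *Klf4*. The HNF4 element (0.384% of windows), and TATAAA (12.4%) had no match in these windows, and AGGAAG (29.5%) had 1, in P2. Counts are over whole windows, so that the GC box, the ETS core and 1 CACCC of P2 and 1 CACCC of *Elf3* lie in bases not shown. These are matches of letters and say nothing of binding. No sequence was shown for *Epcam*, or for *Cdh1*, *Cdh17*, *Hnf4g* and *Klf5*, of which the RefSeq promoters used here held none.

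The 8 genes differed widely in level, and the same genes stood at the top and the bottom in all 4 groups. In the water controls *Epcam* had the highest mean (627 ± 61.8 TPM, SD, n = 4), followed by *Klf4* (297), *Elf3* (224), *Cdh1* (197), *Cdh17* (102), *Hnf4a* (80.3), *Klf5* (72.9) and *Hnf4g* (4.75 TPM). *Klf4* and *Elf3*, *Elf3* and *Cdh1*, *Cdh17* and *Hnf4a*, and *Hnf4a* and *Klf5* overlapped between mice. The order in the water Tnfr2ko mice was the same except that *Klf5* (77.1 TPM) stood above *Hnf4a* (61.0 TPM). After DSS *Cdh1* stood next to *Epcam*, with means of 279 TPM (controls) and 291 TPM (Tnfr2ko), above *Klf4*, whose range it overlapped in the controls. Among the 18010 genes above 0 in at least 1 mouse, *Epcam* lay at or above the 99.1st percentile of every library, and *Hnf4g* between the 12.3rd and the 75th.

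Other cell types moved with treatment, and these values stand beside every treatment difference below. The summed level of 16 leukocyte markers was 1046 to 2169 rescaled TPM in the 9 water libraries and 39.7 to 107 in the 7 DSS libraries, with *Cd8a* listed at 0 in all DSS libraries and *Cd2* in the DSS controls. In the water controls *Cd8a* was also near 0, at 0.302 rescaled TPM or less. The 12 B and plasma cell markers summed to between 3044 and 162448 rescaled TPM in the water libraries and between 237 and 3556 after DSS, where *Tnfrsf17* was listed at 0 in the controls, and the stromal and endothelial markers, of which 17 of 18 are listed, to 377 to 1099 and 128 to 565. Each of 10 pan-epithelial reference genes, among them the keratins *Krt8* and *Krt18*, was at or above 1 rescaled TPM in every mouse, so the libraries carry the markers of the sorted cells. Their sum was 3516 to 4785 rescaled TPM in the water libraries and 2441 to 4071 after DSS. The highest DSS value, 4071, was that of control 3 from cage c, against 2474 and 2441 in the other DSS controls. What part other cells had in the treatment differences was not tested, and in bulk RNA fewer cells of a type and less RNA per cell cannot be told apart.

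**Figure D1:**
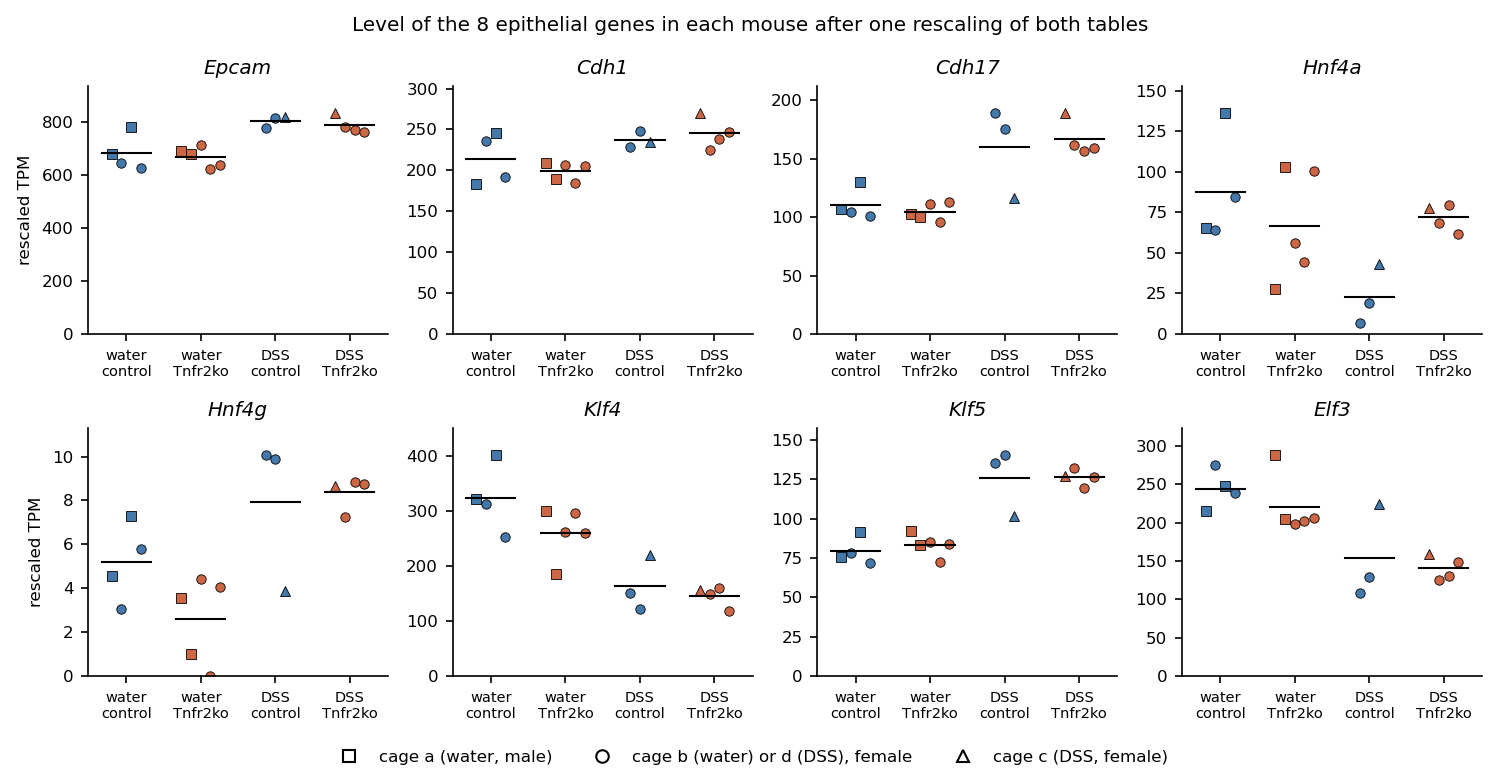
Rescaled TPM of each gene in each of the 16 mice, by treatment and genotype, with a line at the group mean and the symbol giving the cage. *Klf5* lies higher in every DSS mouse (101.9 or more) than in every water mouse, while *Klf4* and *Elf3* lie lower in most, and the DSS control of cage c (triangle) stands apart from the other DSS controls for *Cdh17*, *Hnf4g*, *Klf4*, *Klf5* and *Elf3*.

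*Epcam*, the molecule used for the sort, differed little between mice of a group. In the water controls it had 632, 592, 712 and 573 TPM (replicates 1 to 4), and in the water Tnfr2ko mice 647, 620, 671, 566 and 586 TPM (replicates 1 to 5). The DSS controls had 899, 925 and 1017 TPM, and the DSS Tnfr2ko mice 996, 934, 912 and 894 TPM. The genotypes overlapped in both treatments. The Tnfr2ko mice minus the controls gave a log2 difference of −0.02 in water (SE 0.10, limma) and −0.02 after DSS (SE 0.11). On rescaled TPM, *Epcam* was higher after DSS by 0.24 on the log2 scale in the controls (SE 0.09), where the groups overlapped, and by 0.24 in the Tnfr2ko mice (SE 0.05), where they did not.

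*Cdh1*, which encodes E-cadherin, lies on chromosome 8 (106603351 to 106670246, plus strand). It had 171, 216, 224 and 176 TPM in the water controls, and in water Tnfr2ko mice 196, 173, 195, 167 and 188 TPM. Among the DSS mice, controls had 264, 282 and 291 TPM, and Tnfr2ko mice 322, 268, 282 and 290 TPM. The ranges of the genotypes overlapped in both treatments. The genotype difference was −0.09 in water (SE 0.11) and 0.06 after DSS (SE 0.11). On rescaled TPM the DSS mice were higher by 0.16 in the controls (SE 0.13) and by 0.30 in the Tnfr2ko mice (SE 0.06), but relative to *Epcam* of the same library the difference in the controls turned to −0.08 and that in the Tnfr2ko mice shrank to 0.06.

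*Cdh17* (chromosome 4, 11758147 to 11817895, plus strand) had a higher TPM in every DSS mouse than in every water mouse, and on rescaled TPM in all but 1. It had 99.9, 96.0, 119 and 92.5 TPM in the water controls, and in water Tnfr2ko mice 96.1, 91.5, 105, 87.1 and 103 TPM. Values after DSS were 218, 199 and 144 TPM for controls, and 226, 193, 185 and 187 TPM for Tnfr2ko mice. Control 3 of cage c was thus the lowest DSS mouse, and its Tnfr2ko cage mate the highest. The genotype difference was −0.07 in water (SE 0.10) and 0.10 after DSS (SE 0.16), and without that control the latter was −0.08. On rescaled TPM the DSS mice were higher by 0.51 in the controls (SE 0.20), with overlap, and by 0.67 in the Tnfr2ko mice (SE 0.07), with none.

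The ratio of *Cdh17* to *Cdh1* within a library does not depend on how the tables were scaled. It lay between 0.444 and 0.584 in the water controls and between 0.490 and 0.550 in the water Tnfr2ko mice. After DSS it was 0.827, 0.706 and 0.497 in the controls and between 0.644 and 0.721 in the Tnfr2ko mice. All DSS mice but control 3 therefore lay above all water mice. Between genotypes the log2 ratio differed by 0.02 in water (exact two-sided permutation p = 0.810, n = 4 and 5) and by 0.04 after DSS (exact p = 0.886, n = 3 and 4), and neither passed after adjustment over the 6 ratio tests (adjusted p = 0.886 for both).

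*Hnf4a*, the nuclear receptor of enterocyte genes, was the gene of this set with the largest genotype difference. After DSS the controls had 7.95, 21.4 and 53.5 TPM and the Tnfr2ko mice 92.1, 81.8, 94.3 and 72.3 TPM. Every mouse labelled Tnfr2ko lay above every control. Of the 10899 genes tested after DSS, 2.13% were without overlap in this direction, so that 1 of 8 genes is to be read against that share. The log2 difference was 1.95 (SE 0.52), with an unadjusted p of 0.00631 from limma and an adjusted p of 1.00, and *Hnf4a* stood at rank 39 by p. The exact permutation test gave p = 0.0286, the smallest that 3 mice against 4 can give. Within cage c the control had 53.5 TPM and the Tnfr2ko mouse 92.1 TPM, a difference of 0.77, and within cage d the means were 14.7 (n = 2) and 82.8 TPM (n = 3), a difference of 2.56. Over 15 alternatives, leaving out each mouse among them, the difference stayed between 1.29 (without control 1) and 2.60 (without control 3), with adjusted p between 0.179 and 1.00 by limma. In the other direction, 0 of the 8 genes and 1.55% of all genes lay lower in the Tnfr2ko mice without overlap.

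In the water-treated mice *Hnf4a* lay the other way and the genotypes overlapped. The controls had 61.0, 58.7, 125 and 77.1 TPM, and the Tnfr2ko mice 26.0, 93.8, 53.0, 40.0 and 92.4 TPM. The log2 difference was −0.48 (SE 0.40, adjusted p = 0.865, limma; exact permutation p = 0.349, n = 4 and 5). Whether the genotype difference itself differed between the treatments was not tested, as tests were kept within each table. With 1 mouse left out, the water difference lay between −0.22 (without Tnfr2ko mouse 1) and −0.67.

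The *Hnf4a* level carries an uncertainty of its own that comes before any difference between mice. Of the 4326 stretches of 31 bases in the listed transcript, 0 are unique to it, since all 4326 lie also in ENSMUST00000109411.7, a transcript of 4362 bases that is not listed and starts 1 base earlier. Reads of 75 bases cannot separate such a pair, and kallisto divides them between the 2 where both are in its index. The pair was compared in GENCODE M21, and the authors' transcript release was not given. The authors' technical variance, which sleuth takes from kallisto's repeated estimates of each library on the natural log of the estimated counts, was 0.314 in the DSS table and 0.360 in the water table, 220 and 166 times the median of transcripts with like counts. Each is a single value for a table, pooled over its mice, and corresponds to an SD of 0.81 and 0.87 on the log2 scale. The 4 DSS Tnfr2ko mice, at 72.3 to 94.3 TPM, spread less than this, and the 3 DSS controls, at 7.95 to 53.5 TPM, more. *Elf3*, with 1.44% of its stretches unique, stood at 5.76 and 4.76 times the median, and the other 6 genes between 0.558 and 1.05 times. *Epcam* also had 0% unique stretches and stood at 0.685 and 0.707 times. Its stretches were shared among several transcripts, of which none held more than 84.2% of them. The part of such a division of reads in the *Hnf4a* difference was not tested.

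**Figure D2:**
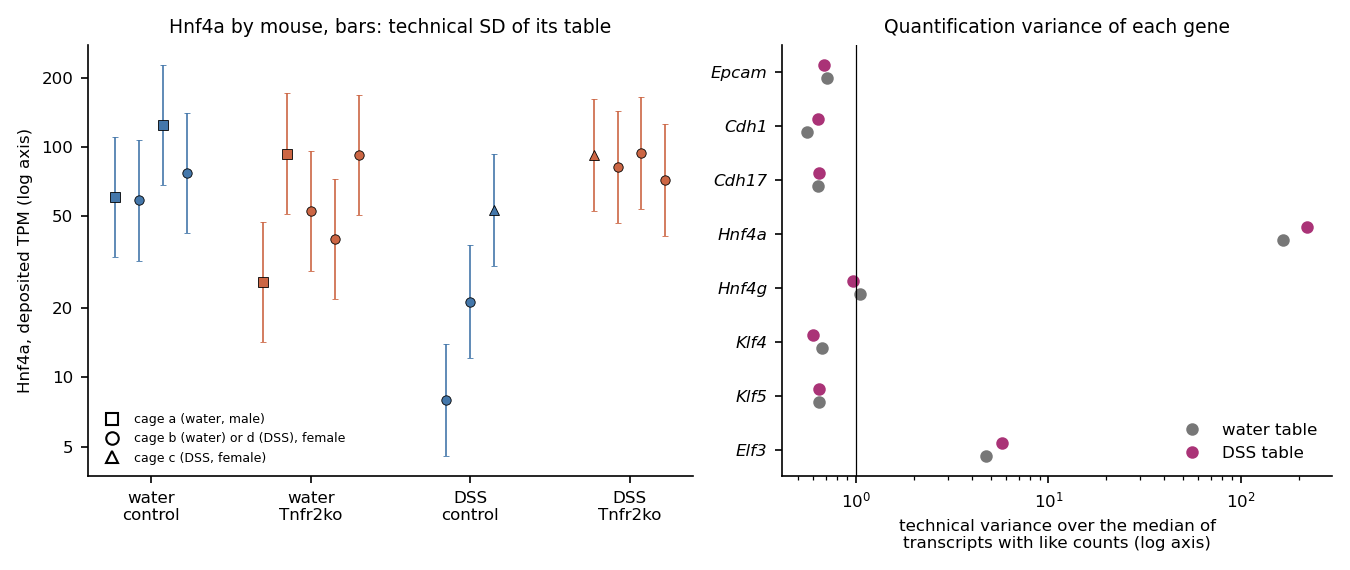
Left, deposited TPM of *Hnf4a* in each mouse on a log axis, with bars of 1 technical SD of its table (a factor of 1.75 after DSS and 1.82 in water) and symbols for the cage. Right, technical variance of the 8 genes over the median of transcripts with like counts on a log axis, where *Hnf4a* stands at 220 and 166 and the other genes at 5.76 or less.

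On rescaled TPM, *Hnf4a* lay lower after DSS in the controls by −2.15 on the log2 scale (SE 0.67, no overlap), at 6.90, 18.8 and 43.2 against 64.0 to 137. Of 11207 genes with a mean of at least 1 rescaled TPM, 14% lay lower after DSS in the controls without overlap. The difference was −1.51 without DSS control 1 and −2.75 without DSS control 3. In the Tnfr2ko mice it differed by 0.27 (SE 0.41), the treatments overlapped, and with 1 mouse left out the value lay between 0.00255 (without water Tnfr2ko mouse 1) and 0.46.

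*Hnf4g*, the paralog of *Hnf4a*, was the lowest of the 8 genes in every group. It had 4.25, 2.80, 6.65 and 5.28 TPM in the water controls, and in water Tnfr2ko mice 3.30, 0.935, 4.14, 0 and 3.71 TPM. In DSS controls the values were 11.6, 11.2 and 4.78 TPM, and in DSS Tnfr2ko mice 10.3, 8.63, 10.4 and 10.3 TPM. The water genotypes overlapped at a log2 difference of −0.95 (SE 0.50, unadjusted p = 0.0877 and adjusted p = 0.865 from limma). Its estimated count, as the authors' mean over the table, was 14.4 in water and 119 after DSS, so the water values rest on few reads. After DSS the difference was 0.18 (SE 0.28), and −0.19 without control 3. On rescaled TPM *Hnf4g* was higher after DSS by 0.49 in the controls (SE 0.42), with overlap, and by 1.63 in the Tnfr2ko mice (SE 0.54), with none. For so low a gene the pseudocount counts: with 0.1 in place of 1 the latter was 2.49 and the water genotype difference −1.71.

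The ratio of *Hnf4a* to *Hnf4g* within a library was 14.3, 20.9, 18.7 and 14.6 in the water controls and 0.684, 1.91 and 11.2 in the DSS controls. In the DSS Tnfr2ko mice it was 8.96, 9.48, 9.03 and 7.04, and in the water Tnfr2ko mice 7.88, 100, 12.8 and 24.9, with no ratio for replicate 4, where *Hnf4g* is listed at 0. Both DSS controls of cage d thus lay below all other mice, while control 3 lay above the DSS Tnfr2ko mice. The log2 ratio of the DSS Tnfr2ko mice was higher by 1.81 (exact permutation p = 0.143, adjusted p = 0.429 over 6 tests, n = 3 and 4), by 0.89 without DSS control 1 and by 2.91 without DSS control 3, and in water the difference was 0.40 (exact p = 0.743, n = 4 and 4). This ratio inherits the technical variance of *Hnf4a*.

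*Klf4* (chromosome 4, 55527143 to 55532466, minus strand) lay lower after DSS. It had 300, 288, 368 and 232 TPM in the water controls, and in water Tnfr2ko mice 281, 169, 246, 268 and 239 TPM. DSS controls stood at 173, 139 and 274 TPM, and DSS Tnfr2ko mice at 187, 178, 190 and 139 TPM. On rescaled TPM no DSS mouse reached its water group in either genotype, with log2 differences of −0.99 in the controls (SE 0.26) and −0.82 in the Tnfr2ko mice (SE 0.17). The highest DSS mouse was control 3, at 221 rescaled TPM against 254 in the lowest water control. The sign was negative under all 5 scalings in both genotypes, but on TPM as deposited or scaled to an equal sum the groups overlapped, and in the Tnfr2ko mice also relative to the pan-epithelial genes.

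Between genotypes *Klf4* differed by −0.30 in water (SE 0.18, unadjusted p = 0.121 and adjusted p = 0.865 from limma). In cage a the difference was −0.61 and in cage b −0.04. After DSS it was −0.12 (SE 0.24), and 0.15 without control 3.

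*Klf5* (chromosome 14, 99298691 to 99315036, plus strand) lay higher after DSS in every mouse. It had 70.6, 71.4, 83.8 and 65.8 TPM in the water controls, and in water Tnfr2ko mice 86.4, 76.3, 80.1, 65.6 and 77.2 TPM. With DSS, controls reached 156, 160 and 126 TPM, and Tnfr2ko mice 151, 158, 141 and 148 TPM. On rescaled TPM the treatments did not overlap in either genotype, at log2 differences of 0.65 in the controls (SE 0.15) and 0.59 in the Tnfr2ko mice (SE 0.07). The difference stayed above 0 under all 5 scalings, the least being 0.41 and 0.36 relative to *Epcam*, and relative to the pan-epithelial genes the controls overlapped. Between genotypes the differences were 0.08 in water (SE 0.11) and 0.03 after DSS (SE 0.12).

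As *Klf4* lay lower and *Klf5* higher after DSS, the ratio of the pair within a library, which no scaling affects, was taken as well. It was 4.26, 4.03, 4.39 and 3.52 in the water controls and 3.25, 2.22, 3.07, 4.09 and 3.10 in the water Tnfr2ko mice. After DSS it was 1.11, 0.870 and 2.17 in the controls and 1.24, 1.13, 1.35 and 0.936 in the Tnfr2ko mice. Every DSS mouse lay below every water mouse, with control 3 of cage c (2.17) just under the lowest water mouse (2.22). The water Tnfr2ko mice had a lower log2 ratio than the water controls by −0.39 (exact permutation p = 0.0556, adjusted p = 0.333 over 6 tests, n = 4 and 5), with overlap, and after DSS the difference was −0.15 (exact p = 0.829, n = 3 and 4).

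**Figure D3:**
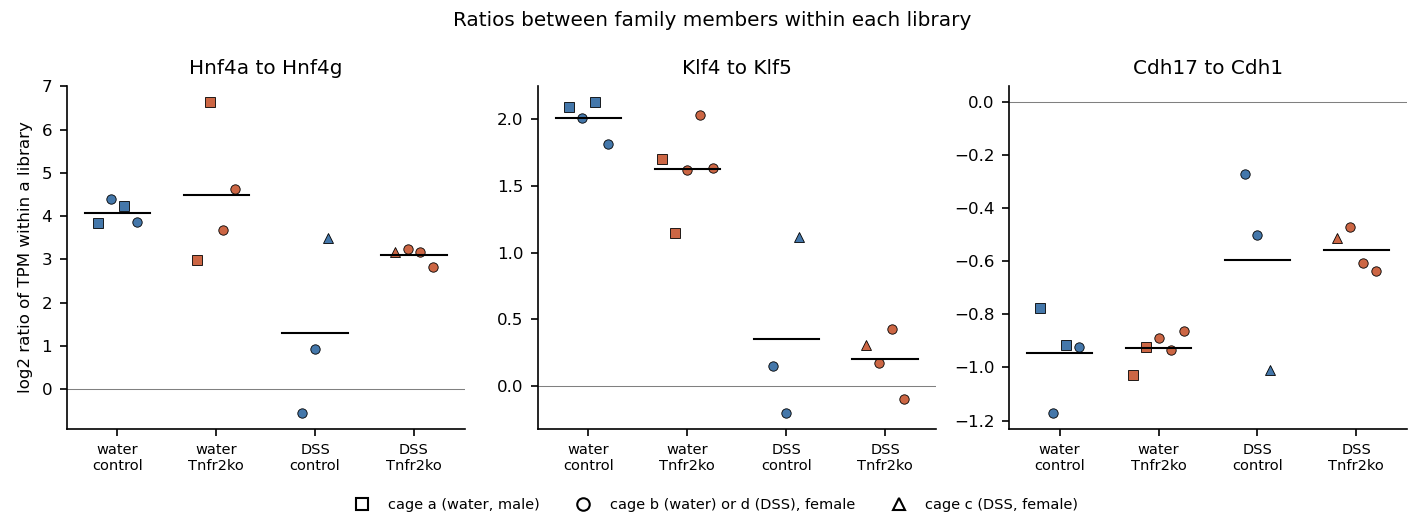
Log2 ratio of TPM between family members within each library, by treatment and genotype, with a line at the group mean and the symbol giving the cage. The Klf4 to Klf5 ratio of every DSS mouse is below that of every water mouse, and the 2 DSS controls of cage d have the lowest Hnf4a to Hnf4g ratios, 0.684 and 1.91 before the log.

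*Elf3* (chromosome 1, 135253575 to 135258568, minus strand) lay lower after DSS on rescaled TPM in all but 1 mouse. It had 200, 252, 226 and 218 TPM in the water controls, and in water Tnfr2ko mice 270, 187, 186, 183 and 189 TPM. The 3 DSS controls gave 124, 146 and 278 TPM, and the 4 DSS Tnfr2ko mice 189, 150, 153 and 175 TPM. Control 3 was again the exception, and on rescaled TPM its 224 lay among the water controls, at 215 to 275. The log2 difference on rescaled TPM was −0.73 in the controls (SE 0.28), with overlap, and −0.63 in the Tnfr2ko mice (SE 0.13), with none. In the Tnfr2ko mice the groups overlapped under 3 of the 5 scalings, at −0.27 on TPM as deposited, −0.36 relative to the pan-epithelial genes and −0.06 where libraries were scaled to an equal sum. Between genotypes *Elf3* differed by −0.15 in water (SE 0.14) and by −0.05 after DSS (SE 0.26), the latter turning to 0.30 without control 3.

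**Figure D4:**
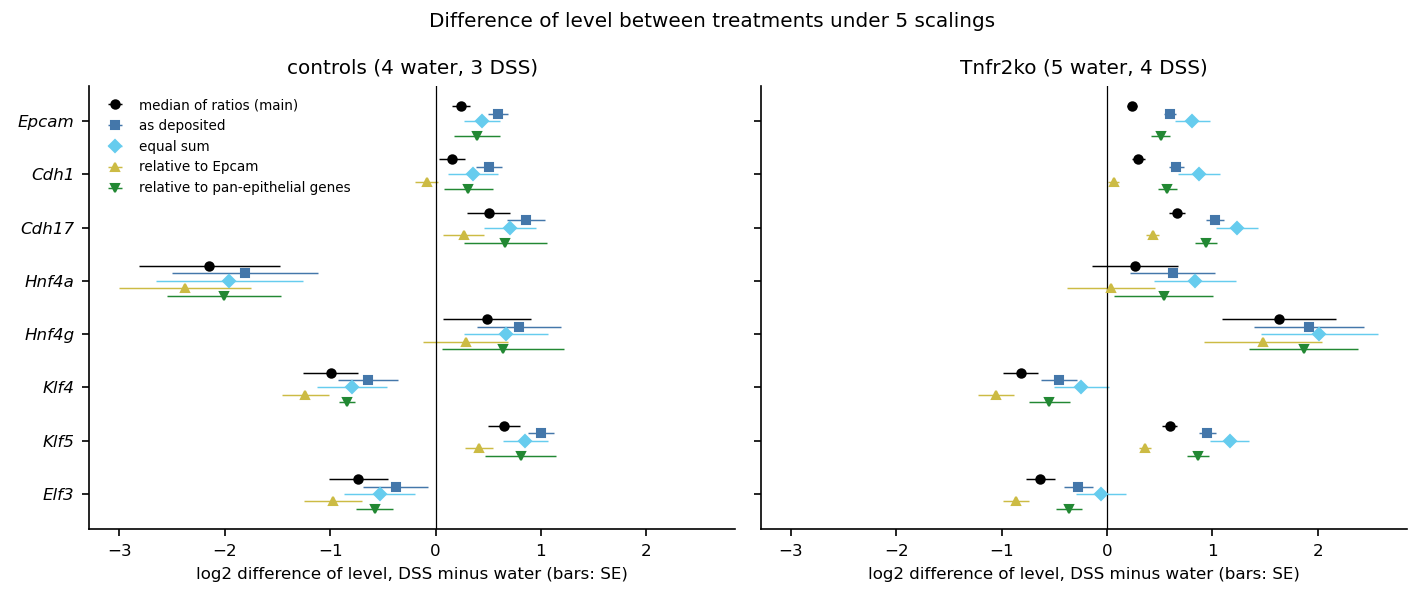
Difference of level between treatments, DSS minus water on the log2 scale with its SE, for the 8 genes in the controls and in the Tnfr2ko mice under 5 scalings (*Epcam* relative to itself is not drawn). *Klf4* and *Elf3* stay below 0 and *Epcam*, *Cdh17*, *Hnf4g* and *Klf5* above 0 under each scaling, while *Cdh1* in the controls changes sign relative to *Epcam*.

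Across the set, 3 of 8 genes in the controls were without overlap between the treatments on rescaled TPM, *Klf5* higher and *Hnf4a* and *Klf4* lower, where 10.6% of 11207 genes lay higher and 14% lower. Without control 3 the count was 6, with *Cdh17*, *Hnf4g* and *Klf5* higher and *Hnf4a*, *Klf4* and *Elf3* lower, but the shares of all genes then also went up, to 24.8% higher and 26.1% lower. In the Tnfr2ko mice 7 of 8 genes were without overlap, *Epcam*, *Cdh1*, *Cdh17*, *Hnf4g* and *Klf5* higher and *Klf4* and *Elf3* lower, where 17.3% of genes lay higher and 18% lower. The pan-epithelial genes had a median difference of −0.15 in the controls and −0.34 in the Tnfr2ko mice. Relative to them, 3.82% of all genes lay higher and 11.3% lower in the controls, and 21.3% higher and 10.8% lower in the Tnfr2ko mice. In the controls 3 of 8 genes were then without overlap, *Hnf4a*, *Klf4* and *Elf3*, all lower. In the Tnfr2ko mice 5 of 8 were, *Epcam*, *Cdh1*, *Cdh17*, *Hnf4g* and *Klf5*, all higher. Control 3 was nearer the mean of the water controls than that of the other DSS controls for 4 of 8 genes. This count used rescaled TPM without a log. On a log scale *Hnf4a* and *Klf4* of control 3 lay nearer the water controls as well. The share among all 11207 genes, 57.7%, was taken on a log scale and is not to be set beside the 4 of 8.

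No gene of the set passed the genotype test in either treatment. By limma, 0.00918% of the 10899 genes were called after DSS (1 gene) and 0.00905% of 11046 in water (1 gene). At an unadjusted p under 0.05, *Hnf4a* after DSS was the 1 of 8 genes, where 2.65% of all genes stood, and 0 of 8 in water, where 5.28% stood. The adjusted p of the 8 genes lay between 0.865 and 0.977 in water and was 1.00 for each after DSS. Data were also simulated from the means and spreads of the tested genes, with 200 of 10899 changed by 2 on the log2 scale. Of the changed genes, 74.0% were called after DSS, with 11 false calls. Genes varied independently of each other in that simulation, and both groups of mice were given the same spread. With 200 genes changed at once, a gene passes adjustment more readily than in these mice, where 1 gene was called. The share need not hold for these mice and is not the chance of calling a difference like that of *Hnf4a*. In water, 7 of 8 genes had a difference below 0 with a median of −0.12, against 0.00 over all genes, and after DSS 3 of 8 with a median of 0.04, against 0.02. Between cage a and cage b of the water mice, with genotype in the model, 0 of 8 genes passed, with differences between 0.01 and 0.17 in the direction of the male cage and adjusted p between 0.813 and 0.994, where 0.0362% of genes were called and 6.83% stood at an unadjusted p under 0.05 (0 of 8 genes here). Markers of other cells also lay apart by genotype without passing: of the B and plasma cell markers, 9 of 10 tested were higher in the water Tnfr2ko mice, with a median difference of 1.14, and 6 of 6 after DSS, with a median of 0.44. Of the stromal and endothelial markers 3 of 15 were higher in the water Tnfr2ko mice, with a median of −0.49, and 10 of 13 after DSS, with a median of 0.10. Their part in the genotype differences was not tested.

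**Figure D5:**
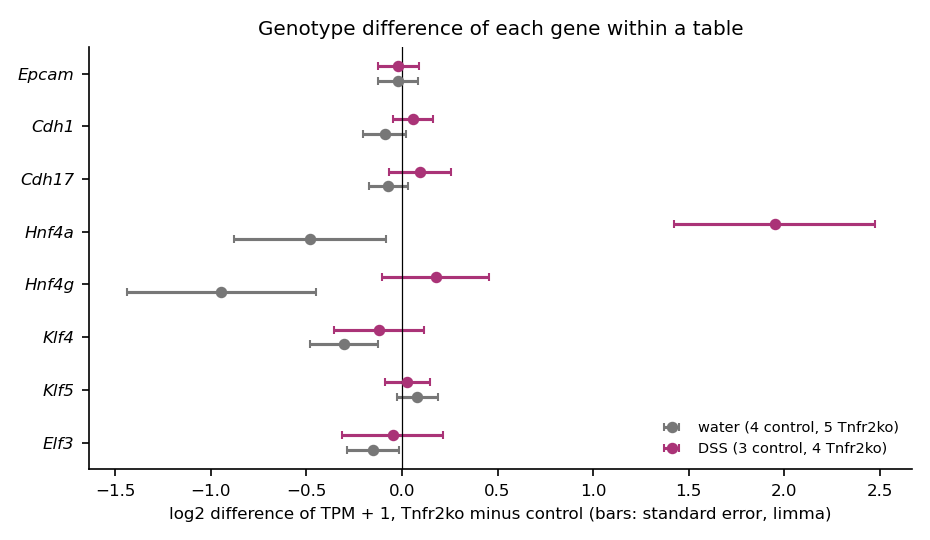
Log2 difference of TPM + 1, Tnfr2ko minus control, of each gene in water and after DSS, with the standard error from limma. *Hnf4a* after DSS, at 1.95, is the value farthest from 0, and none passed adjustment over all genes.

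Genes of the same families and pathways were counted from lists. Counts without overlap in the controls, here and in the lists below, stand beside 10.6% of 11207 genes higher and 14% lower after DSS. Of 34 other epithelial transcription factors, 31 reached a mean of 1 rescaled TPM, and in the controls 5 lay higher and 4 lower after DSS without overlap, with a median log2 difference of 0.10 against 0.01 over all genes. The intestine-specific homeobox factor *Isx* was at 3.34 ± 2.20 rescaled TPM in water and at 14.6 ± 5.61 after DSS (SD, n = 4 and 3, no test), and *Id2*, an inhibitor of helix-loop-helix factors that leukocytes also express, was 59.6 ± 9.72 in water and 11.2 ± 2.04 after DSS. The bile acid receptor *Nr1h4* differed by 1.23 with overlap and *Rxra*, the partner of many nuclear receptors, by −0.47 with none. Of the Klf and Sp family outside the set, 13 of 20 were measured, 1 higher and 3 lower in the controls. *Klf2*, which endothelial cells and lymphocytes use, was 84.6 ± 26.7 and 26.9 ± 6.86, *Klf11* differed by −0.63, *Klf7* by 0.61 and *Sp1* by 0.23. In the genotype tests 0 genes of either list passed. At an unadjusted p under 0.05 by limma after DSS stood 2 of 30 factors, *Bcl6* (0.68) and *Ets2* (0.26), and 0 of 13 Klf and Sp genes. Of all genes 2.65% did so. In water 1 of 31 factors and 1 of 13 Klf and Sp genes did, the latter being *Klf6* (−0.42), where 5.28% of all genes did.

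Of 18 other cadherin genes, 10 were measured, and in the controls 0 were without overlap between treatments, with a median of −0.17. The microvillar protocadherins *Cdhr5* and *Cdhr2* differed by −0.60 and −0.42, and in the Tnfr2ko mice by −1.03 and −0.70 with no overlap, while the desmosomal *Dsc2* and *Dsg2* differed by 0.80 and 0.35 in the controls. Among 21 adherens junction genes and EpCAM partners, 19 were measured and 1 lay higher without overlap, with a median of −0.09. *Cd44*, a surface glycoprotein found with EpCAM, went from 3.15 ± 2.93 to 9.44 ± 5.90 rescaled TPM and the sheddase gene *Adam10* from 22.6 ± 2.63 to 39.8 ± 15.9, both with overlap. *Adam17* and *Spint2*, a protease inhibitor, differed by −0.67 and −0.57 in the controls and by 2.04 and −0.08 in the Tnfr2ko mice, all with overlap. Of 8 repressors of E-cadherin and EMT factors, 3 were measured, and 2 lay lower after DSS in the controls without overlap, with a median of −1.11. In the Tnfr2ko mice 1 lay higher and 1 lower without overlap, with a median of −0.74, where 17.3% of all genes lay higher and 18% lower. The summed level of the 8 was 9.68 to 26.6 rescaled TPM in water and 6.22 to 17.7 after DSS. Of the 8, *Tcf4* alone had a mean of at least 5. It differed by 0.00 in the controls and by 0.42, without overlap, in the Tnfr2ko mice.

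Of 19 enterocyte genes known to be bound by HNF4, 16 were measured, and in the controls 1 lay higher and 2 lower after DSS without overlap, with a median of 0.05. The brush border protease gene *Mep1a* went from 43.1 ± 14.1 to 18.6 ± 4.79 rescaled TPM and the chloride exchanger gene *Slc26a3* from 137 ± 34.7 to 73.6 ± 23.3. *Tmigd1* and the fatty acid binding protein gene *Fabp2* differed by 1.09 and 0.62, with overlap. Between genotypes after DSS, where *Hnf4a* was higher in the Tnfr2ko mice, 0 of the 17 tested passed, 4 of 17 had a difference above 0 and the median was −0.15, against 0.02 over all genes. *Cideb*, a lipid droplet gene, had the 1 unadjusted p under 0.05 of these 17 by limma (−0.45), where 2.65% of all genes stood.

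Within groups the genes varied together in part. Pearson's r of log2 rescaled TPM, centred on each group's mean, was computed over 16 mice for the 28 pairs of the 8 genes, as a description of mice that share tables and scaling. It ran from −0.58 (*Cdh17* and *Elf3*) to 0.82 (*Cdh17* and *Klf5*; Spearman's rho 0.88), with a median of 0.30. Without the 2 mice farthest from the median of *Cdh17*, DSS controls 1 and 3, the first pair came to 0.02 and the other to 0.71, so the negative relation rests on those mice. Among the genes ranked, 6219 or more for each of the 8 and averaging 5 TPM or more in each table, those with the pattern most like *Klf4* were *Egr1* (r = 0.92, rho 0.93, and 0.88 without the 2 farthest mice), an immediate early gene, and *Gde1* (0.92). Most like *Elf3* were *Sart1* (0.93) and the tight junction gene *Tjp3* (0.91), like *Epcam* were *Atpaf2* (0.92) and *Ralb* (0.86), and like *Cdh1* were the protease gene *Tmprss2* (0.87) and *Rhpn2* (0.86). *Cdh17* was matched by *Adgrg7* (0.90) and *Ube3c* (0.89), *Klf5* by *Ak3* (0.91) and *Epb41l4b* (0.87), *Hnf4g* by *Supt20* (0.90) and *Tex10* (0.88), and *Hnf4a* by *Irf2* (0.85) and *Rfng* (0.84). These are the highest of many values, each over 16 mice, and carry no test.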

How the data were processed

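RNA of EpCAM+ cells sorted from the distal colon of 16 mice was sequenced as stranded polyA libraries with single reads of 75 bases, with an approximate depth of 10 M reads per sample per the labels. The authors quantified the reads with kallisto, processed them with sleuth against mm10, and deposited 2 tables of TPM per transcript, one for each treatment, in which only APPRIS principal isoforms are listed. The transcript release was not given in the sources used here. The deposited tables also hold, over the mice of a table, the mean natural log of estimated counts and the technical variance, a score of quantification error, which are printed as the authors' values. The p-values and q-values deposited by the authors hold their own test and were not used. After 385 repeated lines were dropped, each table held 28988 transcripts. Of these, 27827 (96.0%) had the same version in GENCODE M21, from which gene positions on GRCm38 were taken.

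TPM were summed over the listed transcripts of each symbol. Genotypes were compared within a table with limma 3.58.1 in R 4.3.3, which was given log2(TPM + 1) of genes averaging 1 TPM or more and a trended prior variance. Adjusted p-values follow Benjamini and Hochberg, with a threshold of 0.05. A fold on this scale understates the change of low genes. Single genes and within-library ratios were tested by permuting the genotype labels exhaustively (exact, two-sided; 35 arrangements for DSS, 126 for water). Between treatments only levels are given, after median-of-ratios rescaling of all 16 libraries over genes above 0 in each. An SE of a level difference is that of 2 group means with a pooled SD. Transcripts were compared by their stretches of 31 bases in GENCODE M21 transcripts. Motifs were searched in RefSeq promoters of GRCm38.p6, which hold 4 of the 8 genes. The limma step was tested on simulated data. Alternatives were other pseudocounts, filters and scalings, a replicate block, cage as a covariate, all 4 groups in one fit and leaving out each mouse. The count of mice sets the precision, and depth per library cannot be read from TPM. Python 3.11.15, numpy 2.4.6, pandas 2.3.3, scipy 1.17.1 and matplotlib 3.10.9 were used.

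Groups, replicate numbers, cage and sex come from the labels. The 8 genes and the gene lists were chosen with earlier results of these data known. Named are the 8 genes, list genes with an adjusted p under 0.05 in a genotype or cage test, the 2 list genes in each direction with the largest difference between treatments in the controls among those with a mean of at least 5 TPM, and the 2 genes most like each of the 8. List genes at an unadjusted p under 0.05 were named after their values were seen, and some genes of the lists are not reported here.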

Additional observations from a re-analysis of the deposited data

Results flagged for a closer look

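In each group of 4 or 5 mice, the highest and lowest value of each of the 8 genes was set against the rest by Dixon's ratio of the gap to the range, over 24 groups in all, of which chance sets apart about 1 in 20. In 2 of them a mouse stood apart. *Elf3* had 270 TPM in water Tnfr2ko mouse 1 of cage a, against 183 to 189 TPM in the other 4 mice, with a ratio of 0.931 against a critical value of 0.710. *Hnf4g* had 8.63 TPM in DSS Tnfr2ko mouse 2, against 10.3 to 10.4 TPM in the other 3, with a ratio of 0.902 against 0.829. The group of 3 DSS controls is too small for this rule.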

How the results depend on the processing

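The number of the 8 genes passing the genotype or cage test was 0 under each alternative run, and the smallest adjusted p of a gene was 0.179, that of *Hnf4a* without DSS control 3. The number of the 6 ratio tests passing was likewise 0. Between treatments, the number of genes without overlap in the controls was 5 in place of 3 on TPM as deposited and between 3 and 6 with a mouse left out. In the Tnfr2ko mice it was 5 (5 higher and 0 lower) in place of 7 (5 higher and 2 lower) on TPM as deposited, scaled to an equal sum or relative to the pan-epithelial genes. Genotype differences near 0 changed sign: after DSS *Epcam* came to 0.033 under quantile normalization and *Elf3* to 0.00393 with cage as a covariate, and in water *Klf5* to −0.018 under quantile normalization. With a mouse left out, the ranges that crossed 0 after DSS were −0.056 to 0.034 for *Epcam*, −0.080 to 0.22 for *Cdh17*, −0.19 to 0.37 for *Hnf4g*, −0.34 to 0.15 for *Klf4*, −0.079 to 0.088 for *Klf5* and −0.28 to 0.30 for *Elf3*, and in water −0.061 to 0.044 for *Epcam* and −0.11 to 0.00428 for *Cdh17*. Those of log2 ratios were −0.17 to 0.20 (*Cdh17* to *Cdh1*) and −0.43 to 0.23 (*Klf4* to *Klf5*) after DSS, and −0.056 to 0.075 (*Cdh17* to *Cdh1*) and −0.32 to 0.91 (*Hnf4a* to *Hnf4g*) in water. The cause of these changes was not tested.

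Mice with the same replicate number are not known to share an animal, litter or day. Correlations of their deviations within groups were −0.197 to −0.0253 after DSS (3 pairs) and −0.0769 to 0.0932 in water (4 pairs), so the numbers were not taken to pair the mice. With the replicate number as a block, 0 of 8 genes passed in either treatment, *Hnf4a* after DSS differed by 2.02 (adjusted p = 1.00, limma) and *Epcam* by 0.00162.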
